A study of Mus musculus with 22 samples.

Results

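The cytosolic ribosomal protein genes encode the proteins of the large (60S, Rpl and Rplp names) and small (40S, Rps names and Rpsa) subunits of the ribosome. They were taken by symbol: every listed gene named Rpl or Rps followed by a digit, with Rplp0, Rplp1, Rplp2 and Rpsa, and without pseudogenes and the Rps6 kinases. This gave 86 of the 23359 listed genes, 52 with Rpl and 34 with Rps names. The Rps names include Rps19bp1, which does not encode a ribosomal protein. The ribosome translates mRNA, and cells make its proteins in near-equal numbers to match the ribosomal RNA. Many of their mRNAs begin with a terminal oligopyrimidine (TOP) tract, through which mTOR signalling and the binding protein Larp1 adjust their translation and stability. Fibroblasts and muscle cells are known to raise ribosome production when they grow, divide or secrete more matrix.

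All mice were wild-type C57BL/6 males at postnatal weeks 10 to 14, and poly-A RNA of 2 of their cardiac cell types, fibroblasts (CF) and cardiomyocytes (CM), was sequenced. Among the 19 CF libraries, 3 were sedentary, 2 were sham-operated and taken at 3 days, and 2 followed MI by 5 days. TAC was sampled at 3 days (n = 3) and at 10 days (n = 3), and swimming at 4 days (n = 3) and at 10 days (n = 3). The 3 CM libraries were sedentary, and no group carried a transgene or an induced deletion per the labels. The labels abbreviate the operations: TAC is taken here to mean transverse aortic constriction, a pressure load on the left ventricle, and MI myocardial infarction. The third sedentary library of each cell type has a date in its title where the others have a number, and the labels do not say whether it was handled with them. Nor do they say whether libraries came from separate animals, so each p-value reflects how far these samples spread, which may be technical variation alone.

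Levels were given as FPKM, fragments per kilobase of transcript after scaling by library size, so levels of different genes compare per length. No read counts were used, and the depth of each library is unknown. In bulk RNA, a lower level from fewer cells of a type and one from less RNA per cell cannot be told apart. All 10 fibroblast markers were present in every CF library, but their sum differed by group. It was 2031 to 2620 FPKM in sedentary CF, 2527 to 2932 in sham and 2151 to 2745 after MI. After 3 and 10 days it was 1192 to 2076 and 1123 to 1842 in TAC, and after 4 and 10 days 2545 to 3666 and 3136 to 3593 in swim CF. Their mean log2(FPKM + 1) overlapped, at 5.63 to 6.09 in 3 day TAC and 5.89 to 6.00 in sham, and 5.70 to 6.27 in 10 day TAC and 5.74 to 6.00 in sedentary CF. The 15 cardiomyocyte markers summed to 53.8 to 754 FPKM in CF against 13407 to 17352 in CM. Macrophage and monocyte markers summed to 559 to 786 FPKM in sedentary CF, 858 to 1878 in sham and 1038 to 1047 after MI. They summed to 973 to 1268 and 852 to 1391 FPKM after 3 and 10 days of TAC. After 4 and 10 days of swimming the sums were 1482 to 1908 and 1010 to 1278. Every other CF library thus lay above every sedentary one in this sum. As the mean of log2(FPKM + 1) over the list, sedentary libraries were at 4.39 to 5.11. This overlapped 3 day TAC (5.04 to 5.38), 10 day TAC (4.70 to 5.52) and 10 day swim (4.95 to 5.39). Sham (5.16 to 5.96), MI (5.27 to 5.47) and 4 day swim (5.34 to 5.67) lay above it. Erythroid markers summed to 11579 to 37187 after 4 days of swimming against 47.3 to 10725 in the other CF libraries. Rn45s, the ribosomal RNA precursor, was listed at 120 to 1289 FPKM in the 7 sedentary, sham and MI libraries, 361 to 6988 in the 12 others and 756 to 2971 in CM. The part of these in the results was not tested.

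Promoters are shown here because the genes moved together in the comparisons that follow. RefSeq windows (GRCm38.p6) of 300 bases, 250 before and 50 after an annotated start, were matched for 65 of the 86 genes. CCGGAAG, the core bound by ETS factors such as GABP, was searched on both strands and lay in a window of 26 of the 65 genes (40%), against 9.93% of 27025 genes. CTTTCC, a pyrimidine run of the TOP type, was searched on the gene's own strand and also lay in 26 of the 65 (40%), against 16.01% of all genes. A TOP tract begins the mRNA, but CTTTCC was searched over the whole window, most of which lies before the start. The 40% is therefore not the share of genes with a TOP tract, and the match shown for Rpl4 lies before the start. The 2 motifs can share up to 2 letters where they meet, and a match is a description of letters, not a binding site. The sequences run from 35 bases before to 25 bases from the start onward, 5′ to 3′ on the gene's strand, and capitals mark matches to either motif. Rpl38 and Rps10 hold both, in Rps27 and Rpl28 CTTTCC begins just after the start, Rpl4 is a gene that did not follow the rest, and Rpl3l and Rps27l are the variants that differed most in share between cell types.
Rpl38 (chr11:114668545-114668604, plus strand): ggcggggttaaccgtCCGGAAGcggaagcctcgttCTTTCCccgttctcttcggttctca
Rps10 (chr17:27635220-27635279, minus strand): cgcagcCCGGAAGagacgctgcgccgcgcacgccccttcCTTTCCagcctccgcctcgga
Rps27 (chr3:90213624-90213683, minus strand): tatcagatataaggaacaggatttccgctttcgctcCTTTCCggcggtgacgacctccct
Rpl28 (chr7:4792930-4792989, plus strand): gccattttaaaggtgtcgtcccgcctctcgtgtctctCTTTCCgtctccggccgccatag
Rpl4 (chr9:64173352-64173411, plus strand): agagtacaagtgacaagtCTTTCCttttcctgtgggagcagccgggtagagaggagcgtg
Rpl3l (chr17:24727791-24727850, plus strand): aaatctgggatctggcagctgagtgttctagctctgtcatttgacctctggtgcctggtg
Rps27l (chr9:66946051-66946110, plus strand): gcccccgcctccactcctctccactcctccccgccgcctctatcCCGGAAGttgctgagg

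In sedentary, sham and MI fibroblasts the ribosomal protein genes held a small share of all FPKM, and in TAC and swim fibroblasts a larger one. The share was 5.91, 6.41 and 7.30% in the sedentary libraries, 6.42 and 6.88% in sham and 7.69 and 7.997% after MI. It was 18.4, 16.4 and 20.01% after 3 days and 13.7, 16.4 and 17.5% after 10 days of TAC. It was 11.9, 19.7 and 14.1% after 4 days and 13.5, 15.7 and 15.2% after 10 days of swimming. The 7 sedentary, sham and MI libraries thus lay between 5.91% and 8.00% and the 12 TAC and swim libraries between 11.9% and 20.01%, with no overlap. The share is given as a description and was not tested. Swim replicate 2 of the 4 day group was the second highest of all, and the group's spread was the widest (15.2% ± 4.02, SD, n = 3). The median member was listed at 52.8 to 82.7 FPKM in the first 7 libraries and at 162 to 328 in the other 12, while 17 to 34 members against 63 to 71 exceeded 100 FPKM.

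**Figure D1:**
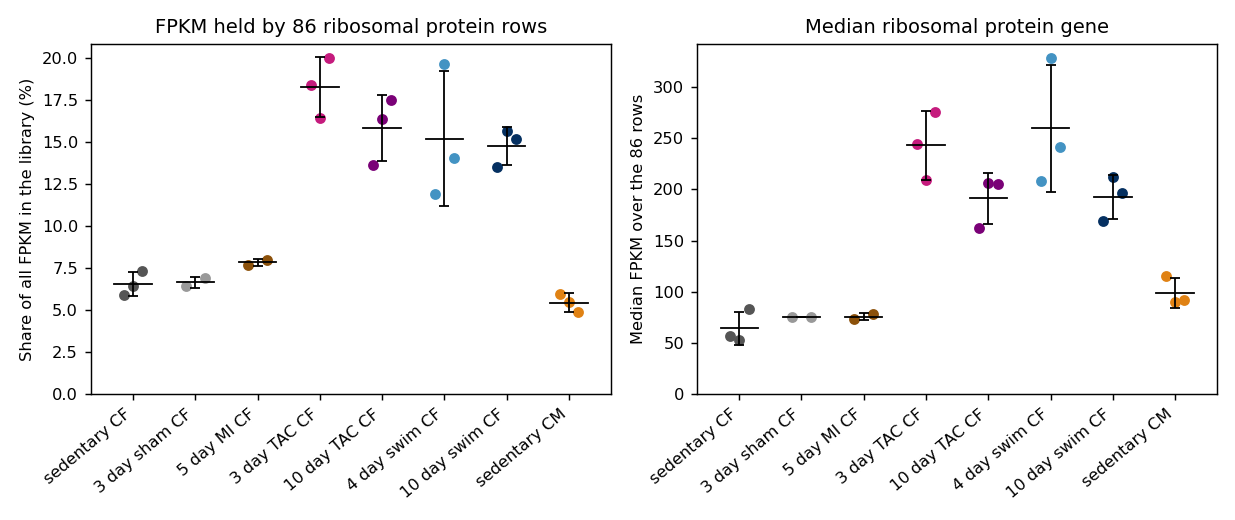
Left, share of all FPKM held by the 86 ribosomal protein genes, in percent, and right, the median FPKM over the 86 genes, in each of the 22 libraries (points), with the group mean (long bar) and SD (error bar). The 7 sedentary, sham and MI fibroblast libraries sit between 5.91% and 8.00% and 52.8 and 82.7 FPKM, the 12 TAC and swim libraries between 11.9% and 20.01% and 162 and 328 FPKM, and the 3 cardiomyocyte libraries between 4.86% and 5.96% and 89.4 and 115 FPKM.

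The first comparison asked what fibroblasts express early in pressure overload, 3 days after TAC against sham. Nearly all ribosomal protein genes rose: 78 of the 83 tested were called higher and 0 lower, with a median log2 fold change of 1.79, or 3.47-fold. Over all 9425 genes tested, 31.3% were called higher and 25.8% lower, with a median of 0.05. All 33 genes tested of the small subunit other than Rps19bp1, which was not called, rose (median 2.001), as did 45 of 48 of the large subunit without Rpl26 (median 1.70). For 79 members every TAC library lay above both sham libraries, and for 1 member below, against 38.6% and 34.2% of all genes. The calls come from limma on log2(FPKM + 1), at a Benjamini-Hochberg adjusted p under 0.05, a scale that understates the changes of low genes. Of the 86 genes, Rpl10l, Rpl39l and Rpl3l were too low in fibroblasts to be tested, and Rpl26 was tested only through the few libraries where it was listed.

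The small subunit gave the largest rises after 3 days of TAC. Rps14, whose human counterpart is lost in the 5q- syndrome, was listed at 115 and 130.4 FPKM in sham and 873, 808 and 976 after TAC. Its groups did not overlap, and its log2 fold change was 2.84 log2 units (SE 0.32, limma adjusted p = 4.12e-06). Rps16 rose by 2.53 log2 units (SE 0.28, limma adjusted p = 3.32e-06). Rps19, the gene most often mutated in Diamond-Blackfan anaemia, was listed at 56.1 and 58.5 FPKM and 289, 249.99 and 353, with a fold change of 2.34 log2 units (SE 0.26, limma adjusted p = 3.66e-06). Rps6, the target of the S6 kinases, moved less, from 85.3 and 75.1 to 172, 153 and 173 FPKM, with a fold change of 1.04 log2 units (SE 0.21, limma adjusted p = 0.000583). Rpsa, a laminin receptor precursor as well as a ribosomal protein, was listed at 64.6 and 66.8 FPKM in sham and 246, 211 and 289 after TAC and rose by 1.89 log2 units (SE 0.21, limma adjusted p = 3.32e-06). In each of these 5 genes all 3 TAC libraries lay above both sham libraries.

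The stalk of the large subunit, which recruits the elongation factors, rose with them. Rplp1, the member of highest mean FPKM in fibroblasts (chr9:61913282-61914510, mm10), was listed at 321 and 334 FPKM in sham and 1769, 1451 and 2338 after 3 days of TAC. Rplp0, the base of the stalk, was listed at 167 and 181 and 580.3, 470.1 and 706 FPKM, and Rplp2 at 110.2 and 100.1 and 578, 505 and 623. The groups did not overlap for any of the 3, and their log2 fold changes were 2.47, 1.73 and 2.42. Rpl5 and Rpl11, which carry the 5S RNA and can bind Mdm2, the p53 ubiquitin ligase, had folds of different size. Rpl11 was listed at 77.8 and 87.8 FPKM in sham and 254, 229 and 295 after TAC (1.63 log2 units, SE 0.22, limma adjusted p = 1.32e-05). Rpl5 was listed at 49.1 and 46.6 and 77.7, 70.96 and 79.5 FPKM (0.66 log2 units, SE 0.20, limma adjusted p = 0.0102). Rpl3, at the peptidyl transferase centre, was listed at 63.2 and 67.5 and 126, 121 and 129 FPKM (0.93 log2 units, SE 0.20, limma adjusted p = 0.00088). Rpl41, the smallest ribosomal protein, was listed at 199.6 and 272 and 1375, 1061 and 1569 FPKM (2.496 log2 units, SE 0.29, limma adjusted p = 5.42e-06).

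The 5 members that were not called after 3 days of TAC were Rpl4, Rpl7l1, Rpl21, Rpl26 and Rps19bp1. Rpl4, which lines the peptide exit tunnel (chr9:64173386-64178562, mm10), was listed at 117 and 106 FPKM in sham and 99.8, 102 and 88.6 after TAC, with a value of -0.20 log2 units (SE 0.22, limma adjusted p = 0.442); it is the member that lay lower in every TAC library. Rpl7l1, an Rpl7-like protein, had a value of -0.22 log2 units (SE 0.31, limma adjusted p = 0.559). Rpl21 had a value of 0.16 log2 units (SE 0.17, limma adjusted p = 0.436), and it turned to -0.29 when libraries were scaled to equal total FPKM and to -0.20 when the length trend was removed. Rps19bp1, which fits the name rule but encodes a regulator of the deacetylase Sirt1, not a ribosomal protein, had a value of 0.45 log2 units (SE 0.25, limma adjusted p = 0.129). Rpl26 was under 1 FPKM in 18 of the 22 libraries and was listed at 28.2 FPKM in 1 TAC library, 3 day TAC replicate 3. Without Rps19bp1 and Rpl7l1, 78 of 81 members were called higher.

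**Figure D2:**
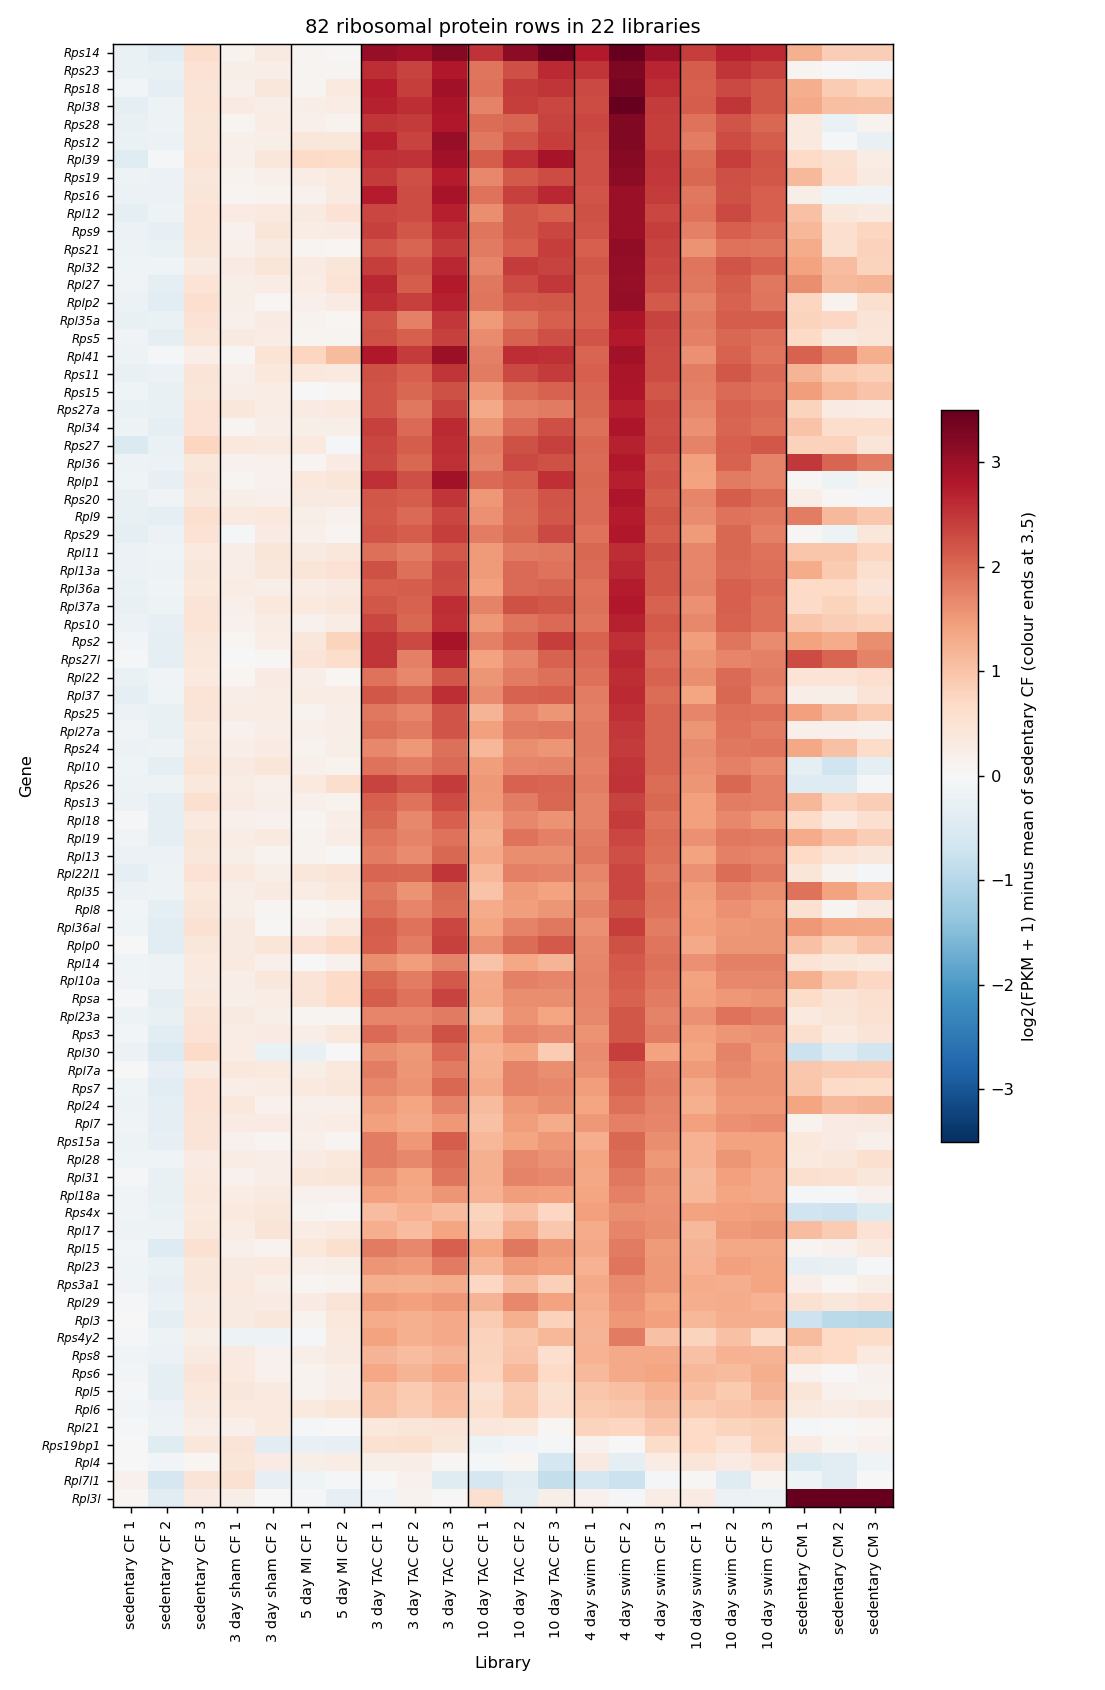
Level of 82 of the 86 genes (one line each, ordered by their value after 4 days of swimming) in each of the 22 libraries (columns, by group), as log2(FPKM + 1) minus the gene's mean in the 3 sedentary fibroblast libraries; colours end at 3.5. Most lines are red, that is higher, in the 12 TAC and swim libraries, Rpl4, Rpl7l1 and Rps19bp1 lie near 0 in most libraries, and Rpl3l is red only in the 3 cardiomyocyte libraries to the right.

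At 10 days, TAC fibroblasts were set against the sedentary ones, the question being what longer pressure overload changes. Again 78 of 83 members were called higher and 0 lower, with a median of 1.66 log2 units, against 38.8% higher and 27.0% lower of all genes and a median of 0.12. For 78 members all TAC libraries lay above all sedentary ones (38.8% of all genes) and for 0 below (25.8%). Rps14 was listed at 89.3, 79.4 and 161 FPKM in sedentary libraries and 606, 921 and 1207 after TAC and rose by 3.05 log2 units (SE 0.29, limma adjusted p = 1.08e-06). Rpl39, a small protein of the exit tunnel, was listed at 78.9, 100.3 and 149 and 459.8, 632 and 787 FPKM and rose by 2.52 log2 units (SE 0.26, limma adjusted p = 1.73e-06). TAC replicate 1 was the lowest of its group for both genes and still lay above all sedentary libraries. Rplp0 rose by 1.90, Rplp1 by 2.22 and Rplp2 by 2.07 log2 units. The 5 members not called were those of the 3 day comparison: Rpl7l1 was at -0.59 (adjusted p = 0.0711, limma), Rpl4 at -0.20, Rps19bp1 at -0.11, Rpl21 at 0.28, and Rpl26 was at 24.9 FPKM in TAC replicate 3 alone. Cardiomyocyte marker sums reached their CF maximum here, 178 to 754 FPKM against 53.8 to 319 in sedentary CF.

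Swimming, a form of exercise that enlarges the heart without disease, gave the same kind of rise against the same 3 sedentary libraries. After 4 days 79 of 83 members were called higher and 0 lower, with a median of 2.10, against 38.2% higher and 26.3% lower of all genes and a median of 0.13. After 10 days 80 were called higher and 0 lower, with a median of 1.75, against 30.0% higher and 13.6% lower and a median of 0.14. All libraries lay above all sedentary ones for 79 members after 4 days and 81 after 10 days, against 38.4% and 38.0% of all genes. Since TAC at 10 days, MI, sham and both swim groups share these sedentary libraries, their folds are not independent of one another.

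Rps14 led the called members in both swim groups. It was listed at 717, 1444 and 849 FPKM after 4 days (3.18 log2 units, SE 0.29, limma adjusted p = 8.66e-07) and 562, 681 and 642 after 10 days (2.57 log2 units, SE 0.29, limma adjusted p = 2.01e-05). Rps23, of the decoding centre, rose by 2.81 and 2.32 log2 units, and Rps18 by 2.74 after 4 days. Rps19 was listed at 45.4, 44.9 and 68.5 FPKM in sedentary libraries, 253, 461 and 291 after 4 days and 210.4, 249.9 and 238 after 10 days. Rplp1 was listed at 269, 248 and 410.3 FPKM in sedentary libraries, 1218, 2005 and 1396 after 4 days and 799, 1062 and 1005 after 10 days of swimming. For each of these genes the second 4 day library was the highest swim library, and every swim library lay above every sedentary one. Rpl5 rose by 1.08 and 1.05, Rpl11 by 2.28 and 1.87, Rps6 by 1.29 and 1.18, and Rpsa by 1.87 and 1.51.

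Rpl21 and Rps19bp1 were among the few members whose calls varied. Rpl21 rose by 0.82 log2 units (SE 0.15, limma adjusted p = 0.000178) after 4 and 0.77 log2 units (SE 0.15, limma adjusted p = 0.000763) after 10 days. Its levels were 10.8 to 14.7 FPKM in sedentary, 21.8, 21.7 and 24.6 in 4 day and 20.9, 21.8 and 23.03 in 10 day libraries, with no overlap between sedentary and swim. Rps19bp1 was called at 10 days (0.66 log2 units, SE 0.22, limma adjusted p = 0.0236, beside 0.26 at 4 days), although its change between 4 and 10 days did not itself pass the test (0.40 log2 units, SE 0.22, limma adjusted p = 0.255). Rpl4 was at 87.9, 81.1 and 91.8 FPKM in sedentary, 108, 68.5 and 105 in 4 day and 117, 106 and 121 in 10 day libraries, with values of 0.08 and 0.39 that were not called. Rpl7l1 was not called either (-0.46 and -0.09). Rpl26 had the highest value at 10 days (3.23 log2 units, SE 1.82, limma adjusted p = 0.168), which rests on 211.6 FPKM in the second library and 2.87 in the third.

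Near copies of the same protein were followed over the fibroblast groups as well. Rpl22, which also binds viral and cellular RNA stem loops, and its copy Rpl22l1 were at like levels and rose together. Rpl22 was listed at 11.04, 12.03 and 16.8 FPKM in sedentary, 40.3, 48.2 and 52.7 in 10 day TAC and 42.1, 54.9 and 48.2 in 10 day swim libraries. Rpl22l1 was listed at 10.8, 12.1 and 20.1 FPKM in sedentary, 32.2, 49.3 and 47.96 in 10 day TAC and 44.2, 56.6 and 51.2 in 10 day swim libraries. For both genes all TAC and swim libraries lay above all sedentary ones, and the rises were 1.76 and 1.55 log2 units after TAC and 1.80 and 1.79 after swimming. Rps27, a small-subunit protein with a zinc finger, was listed at 85.6, 102 and 202 FPKM in sedentary, 418, 568 and 639 in 10 day TAC and 407, 517 and 547 in 10 day swim libraries. Its copy Rps27l was lower in every library, at 19.02, 15.9 and 25.8, 54.3, 67.5 and 85.5 and 60.1, 67.5 and 70.3 FPKM. Both rose, Rps27 by 2.13 log2 units after TAC, and Rps27l by 1.72 and 1.68 log2 units. Rpl36a rose by 1.81 after TAC and 1.94 after swimming, and Rpl36al by 1.66 and 1.497. Rpl10, a late-joining protein of the 60S subunit, rose by 1.64 and 1.68, and Rpl7 by 1.27 and 1.56.

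The rises went with transcript length, which is short in these genes. The members' annotated transcripts had a median of 704 nucleotides (345 to 3706), against 1705 for all genes, and their coding sequences a median of 456 (138 to 1257). In genes outside the group, log2(FPKM + 1) changed by -0.18 to -0.10 per doubling of length in the sedentary, sham and MI libraries and by -0.60 to -0.34 in the TAC and swim libraries. Among members the corresponding slopes were -0.31 to -0.19 and -0.87 to -0.51. FPKM is already divided by length, so this is a trend in what is left. Of other genes up to 1000 nucleotides, 50.5% were called higher after 3 days of TAC, 58.4% after 10 days, 59.1% after 4 days and 49.1% after 10 days of swimming. Of the 70 tested members of that length other than Rpl26, which was not called in any of them, 69, 69, 69 and 70 were called higher in the same comparisons. Of other genes over 4000 nucleotides, 6.27%, 11.4%, 6.59% and 4.13% were called higher. With a smooth trend on length removed from every library, 76, 76, 79 and 79 of the members were called higher and 0, 2, 1 and 0 lower, and the medians were smaller, at 1.29, 1.17, 1.54 and 1.39. The members then called lower were Rpl7l1 after 10 days of TAC (-0.80, limma adjusted p = 0.0222) and 4 days of swimming (-0.75, limma adjusted p = 0.0311), and Rps19bp1 after 10 days of TAC (-0.56, limma adjusted p = 0.0454).

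**Figure D3:**
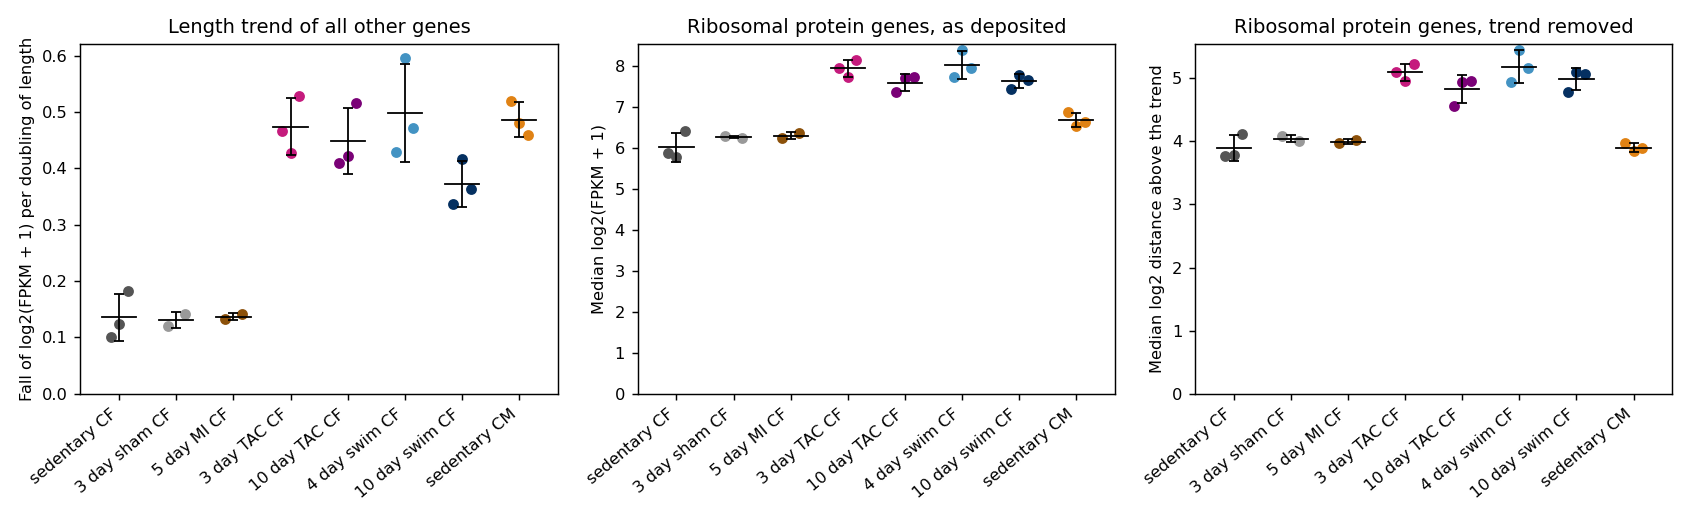
Left, the fall of log2(FPKM + 1) per doubling of transcript length over all other genes; middle, the median log2(FPKM + 1) of the members as deposited; right, the median distance of the members above the length trend, in log2 units; points are libraries, long bars group means and error bars SD. The falls plotted are slopes of -0.18 to -0.10 in the 7 sedentary, sham and MI fibroblast libraries and -0.60 to -0.34 in the 12 TAC and swim ones, where the median level is 5.77 to 6.41 and 7.36 to 8.40 and the distance 3.77 to 4.12 and 4.57 to 5.45.

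Members stood above the length trend of their own library in every group. The median distance was 3.77 to 4.12 log2 units in the 7 sedentary, sham and MI libraries and 4.57 to 5.45 in the 12 TAC and swim libraries, which do not overlap. Within the group, short coding sequences went with larger folds. After 3 days of TAC the median fold was 1.9997 log2 units for coding sequences up to 500 nucleotides, 1.66 for those of 500 to 750 and 1.07 for longer ones. The same medians were 1.88, 1.58 and 1.13 after 10 days of TAC. They were 2.29, 2.01 and 1.61 after 4 days and 1.82, 1.63 and 1.45 after 10 days of swimming. Spearman's rho between fold and coding length over 81 members was -0.56 and -0.52 after 3 and 10 days of TAC and -0.51 and -0.48 after 4 and 10 days of swimming. These genes share libraries and are not independent points. Over 9217 other genes rho with transcript length was -0.45, -0.41, -0.48 and -0.47.

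**Figure D4:**
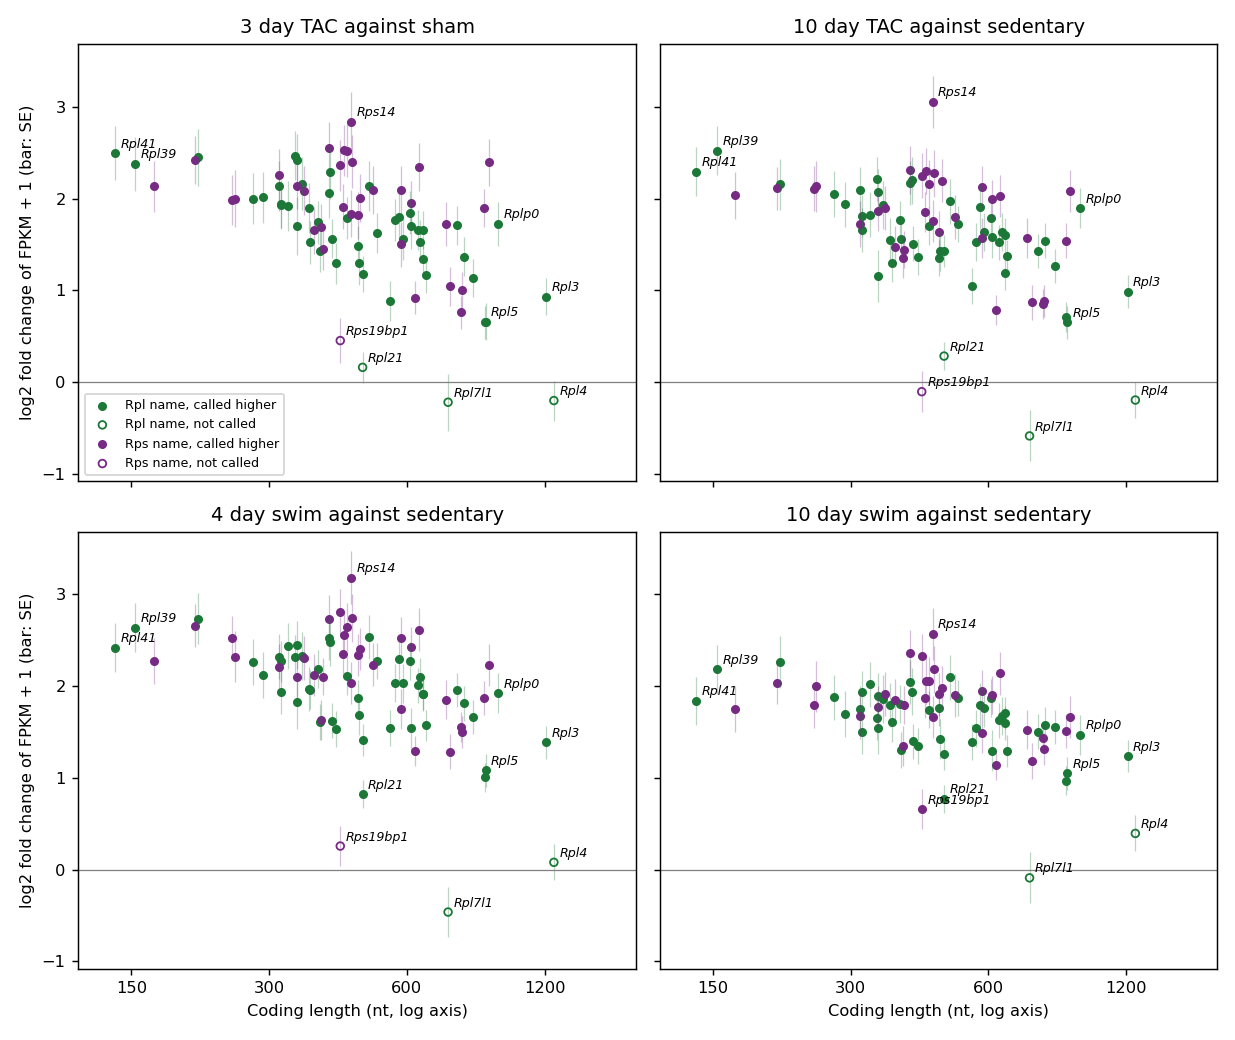
Log2 fold change of FPKM + 1 (bars, SE) against coding length in nucleotides (log axis) for each member tested other than Rpl26 and Rps4y2 (no coding length), in 4 comparisons of TAC or swim fibroblasts with their controls; green marks Rpl and purple Rps names, filled points were called higher and open points were not called. The median point lies lower above 750 nucleotides than at shorter lengths in each panel, Rps14 is the highest point and Rpl7l1 lies below 0 in all 4 panels.

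The MI comparison with sedentary fibroblasts addresses the tissue repair that follows an infarct, and nearly all ribosomal protein genes did not pass the test. Of 83 members 1 was called higher and 0 lower, with a median of 0.23, against 8.93% higher and 2.34% lower of all genes and a median of 0.10. Rpl41 was that member: it was listed at 172, 187 and 227 FPKM in sedentary and 328 and 422 in MI libraries (0.93 log2 units, SE 0.29, limma adjusted p = 0.0499). Both MI libraries lay above all sedentary ones, as was so for 11 members (30.4% of all genes), with 0 members below (10.1%), but the call sits at the threshold and was lost in several alternatives. Rpl39 was at 0.66 and Rplp0 at 0.59, neither called. Rps14 was listed at 113 and 108 FPKM after MI, inside its sedentary range of 89.3, 79.4 and 161. Without sedentary replicate 3, the sedentary library of highest share and the one titled with a date, 8 of 83 members were called higher. This is near the 8.93% of all genes called higher with every library kept. The share of all genes without that library is not reported here. Over members the fold after MI showed little relation to length (rho -0.04 over 82 members).

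No ribosomal protein gene passed the test between sham and sedentary fibroblasts. Of 83 members 0 were called in either direction by limma, beside 0.0212% higher and 0% lower of all genes, and the median member was at 0.25 against 0.09 for all genes. 0 members had an unadjusted p under 0.05, and the authors' deposited table also called 0. Both sham libraries lay above all sedentary ones for 4 members (14.0% of all genes) and below for 0 (3.78%).

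Between time points no member passed the test as set out above. In that fit the median member had a value below 0 in both courses. For 10 against 3 days of TAC, limma called 0 of 83 higher and 0 lower (4.42% and 2.18% of all genes) at a median of -0.33 (all genes -0.02), with 14 members at an unadjusted p under 0.05. All 10 day libraries lay below all 3 day libraries for 32 members, against 16.1% of all genes. Rpsa had a value of -0.59 log2 units (SE 0.19, limma adjusted p = 0.0702) and Rpl22l1 one of -0.62 log2 units (SE 0.24, limma adjusted p = 0.139), while Rps14 was at -0.01. With equal total FPKM without Rn45s 1 member, Rpsa, was called lower (-0.46, limma adjusted p = 0.0454). For 10 against 4 days of swimming limma also called 0 and 0 (0.0106% and 0.308% of all genes) at a median of -0.38 (all genes 0.01), with 18 members at an unadjusted p under 0.05. All 10 day libraries lay below all 4 day ones for 27 members (16.9% of all genes). Rps21 had a value of -0.73 log2 units (SE 0.24, limma adjusted p = 0.145) and Rplp1 one of -0.67 log2 units (SE 0.24, limma adjusted p = 0.151). The difference between the swim and TAC courses was called for 0 members in either direction (1.86% and 4.31% of all genes). It had 3 members at an unadjusted p under 0.05 and a median of -0.05. The sign of 2 of these medians depends on the processing. With equal total FPKM without Rn45s the median was 0.04 for 10 against 4 days of swimming and 0.24 for the course difference. The course difference had a median of 0.12 with the length trend removed. The authors' deposited table called 0 members in either time comparison and was not used for the course difference.

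Swim and TAC at 10 days were compared directly to ask how exercise and overload differ. Of 83 members 5 were called higher after swimming and 0 lower, near or below the 10.9% and 13.2% of all genes, and the median was 0.01. Rps4x, the X-linked form of a small-subunit protein, was listed at 377, 447 and 364 FPKM after TAC and 582, 596 and 605 after swimming (0.59 log2 units, SE 0.16, limma adjusted p = 0.0151). Rpl4 was at 83.5, 90.96 and 56.8 and 117, 106 and 121 FPKM (0.59 log2 units, SE 0.20, limma adjusted p = 0.0372), and Rpl14 at 84.3, 107 and 96.4 and 127, 144 and 144 (0.52 log2 units, SE 0.18, limma adjusted p = 0.0428). The groups did not overlap for these genes. Rpl21 (0.49 log2 units, SE 0.15, limma adjusted p = 0.0282) and Rps19bp1 (0.77 log2 units, SE 0.22, limma adjusted p = 0.0205) were the others. The count fell to 0 without TAC replicate 3 or without swim replicate 3, and to 1 without swim replicate 1. Rplp1 lay on the other side (-0.57 log2 units, SE 0.24, limma adjusted p = 0.0896) and did not pass. All swim libraries lay above all TAC libraries for 12 members and below for 3, against 24.5% and 25.1% of all genes.

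Cardiomyocytes and fibroblasts of sedentary mice were compared to ask how the cell types differ. Of 84 members tested 50 were called higher in cardiomyocytes and 3 lower, with a median of 0.53, against 38.7% higher and 38.6% lower of all 10371 genes and a median of -0.05. This split depends on the scaling. With libraries scaled to equal total FPKM without Rn45s, the median of all genes moved to -0.91, that of the members to -0.39, and 8 members were called higher and 42 lower. The members' median thus lay above that of all genes, and the share of all genes called is not reported here for this scaling. With the length trend removed the split was 24 higher and 13 lower at a median of 0.07. Of other genes 37.3% to 41.5% were then called higher and 31.0% to 42.0% lower, by class of transcript length. Both member counts were under these shares. The share of all FPKM was 5.96, 5.497 and 4.86% in cardiomyocytes, overlapping the 5.91, 6.41 and 7.30% of sedentary fibroblasts. All CM libraries lay above all sedentary CF libraries for 43 members and below for 3 (39.1% and 39.3% of all genes).

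Single members differed more than the group. Rpl3l, a form of Rpl3 known from striated muscle (chr17:24727828-24736149, mm10), was listed at 53.2, 41.1 and 52.3 FPKM in cardiomyocytes and at 0.585, 0.172 and 0.832 in sedentary fibroblasts. It was 5.04 log2 units (SE 0.20, limma adjusted p = 1.15e-14) higher, and it entered the test only through the cardiomyocyte libraries. Rpl3 was lower, at 30.1, 26.1 and 25.4 FPKM against 50.3, 39.8 and 64.95 (-0.88 log2 units, SE 0.18, limma adjusted p = 0.000144), with no overlap. Rps4x was at 135, 133 and 156 against 201, 186 and 278 FPKM (-0.63 log2 units, SE 0.16, limma adjusted p = 0.00147), also with no overlap. Rpl30, the third lower call, was at -0.62 (adjusted p = 0.0447, limma). Rpl36 was at 296, 219.9 and 189 against 46.5, 45.5 and 69.3 FPKM (2.11 log2 units, SE 0.25, limma adjusted p = 2.19e-07). Rpl41 was at 813, 667 and 467 against 172, 187 and 227 FPKM (1.70 log2 units, SE 0.27, limma adjusted p = 1.20e-05). Neither pair of groups overlapped. Values for Rpl11, Rps19 and Rpsa were 0.90, 0.68 and 0.55, and turned to -0.03, -0.24 and -0.38 with equal total FPKM.

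Pairs of near copies were also read as the share of the second form in the sum of both, which does not depend on the scaling of a library. Rpl3l made up 64.1% ± 3.09 (SD, n = 3) of the Rpl3 and Rpl3l sum in cardiomyocytes, 0.166% to 1.27% in the 19 fibroblast libraries and 0.949% on average in sedentary ones. Rps27l, a form of Rps27 that p53 can induce, made up 30.2% ± 1.87 in cardiomyocytes against 14.3% ± 3.51 in sedentary fibroblasts (n = 3 each). Rpl36al made up 70.2% ± 1.82 of the Rpl36a and Rpl36al sum against 57.8% ± 3.48. In these 3 of 6 pairs compared the groups did not overlap, and the two-sided exact permutation test gave p = 0.1, the smallest it can give for 3 against 3 libraries (adjusted over 6 pairs, p = 0.2). Rpl22l1 (45.1% against 51.4%), Rpl7l1 (5.01% against 6.79%) and Rpl39l (0.0995% against 0.142%) each gave exact permutation p = 0.3 (adjusted p = 0.3). Among fibroblast libraries Rpl7l1 held 4.49% to 8.16% of its pair with Rpl7 in the 7 sedentary, sham and MI libraries and 1.12% to 3.13% in the 12 TAC and swim libraries. The trend on transcript length differed between the same libraries. Shares of this kind can carry that trend where the forms of a pair differ in length, and its part in them was not tested. Rpl10l, known from testis, was listed at 0.0776 FPKM or less in every library.

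**Figure D5:**
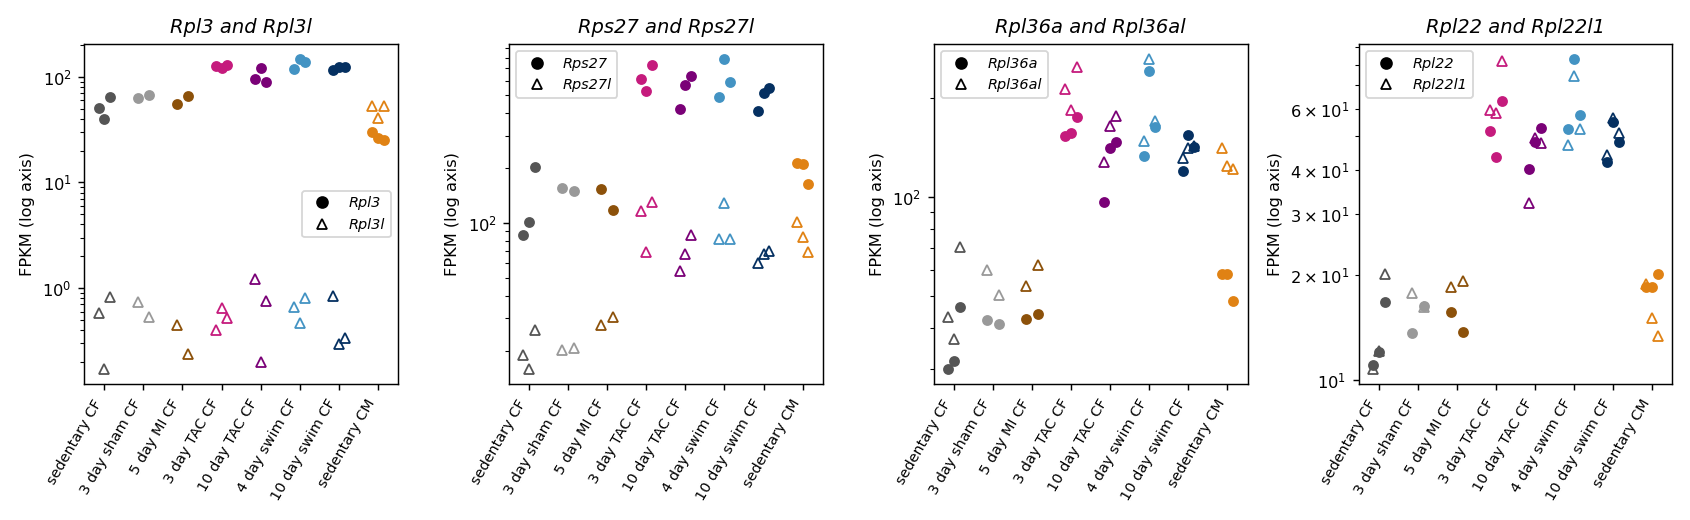
FPKM (log axis, with its own range in each panel) of 4 pairs of near copies in each library, by group; filled circles are the first gene of the pair and open triangles its copy. Rpl3l sits between 41.1 and 53.2 FPKM in the 3 cardiomyocyte libraries, above Rpl3 at 25.4 to 30.1, and far below Rpl3 in every fibroblast library.

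The members moved closely together over the 19 fibroblast libraries. Pearson's r of a member with the median of the others was over 0.95 for 75 of 83, with a median of 0.991, a description of libraries that share a length trend. Rpl7l1 (-0.38), Rpl4 (-0.14), Rpl26 (0.37), Rps19bp1 (0.50) and Rpl21 (0.77) were least like the rest. Mean FPKM in fibroblasts was highest for Rplp1 (1036), Rpl41 (745), Rps20 (721), Rps14 (583) and Rps23 (551). It was lowest for Rpl10l (0.037), Rpl39l (0.374), Rpl3l (0.564), Rps19bp1 (3.04) and Rpl7l1 (5.92).

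Reads of near-identical copies limit single values. Of the pseudogenes, 6 were listed, and some exceeded the gene they copy: Rps15a-ps4 was at 94.7 to 757 FPKM and Rps15a at 3.88 to 24.9. Rps19-ps3 was at 217 FPKM in sedentary CF replicate 2 where Rps19 was at 44.9. How the authors assigned such reads is not given in the sources used here, so these levels are uncertain. The listed loci of 7 members (Rps15, Rpl38, Rps4y2, Rpl31, Rpl5, Rpl32 and Rps27a) span over 20000 bases and may hold further genes. The gene listed as Rps4y2 lies on chromosome 6.

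Other translation genes, from lists of related genes, followed the ribosomal proteins only in part. In 3 and 10 day TAC and 4 and 10 day swim, in that order, 31.3%, 38.8%, 38.2% and 30.0% of all genes tested were called higher and 25.8%, 27.0%, 26.3% and 13.6% lower. The ubiquitin-like fusion Fau and the 40S scaffold Gnb2l1 (Rack1), ribosomal genes with other names, rose in all 4 TAC and swim comparisons, Fau by 2.05 and Gnb2l1 by 1.87 after 3 days of TAC. Of 10 elongation and TOP-type genes 6, 7, 8 and 8 rose, in the same order, and 1 fell in each. Tpt1, a TOP mRNA, rose by 1.24, 1.41, 1.98 and 1.77. Pabpc1, the poly-A binding protein and itself a TOP mRNA, fell, at -1.65, -1.47, -1.99 and -0.97. Of 31 initiation factors 11, 8, 11 and 9 rose and 11, 13, 11 and 5 fell, so that the rises after 3 days of TAC and in both swim groups were near the share of all genes. The small eIF3 subunit Eif3k rose by 1.32 and the large one Eif3a was at -1.83 after 10 days of TAC.

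Among genes that build ribosomes, fewer were called higher than lower. Of 32 tested biogenesis and nucleolar factors 5 rose and 11 fell after 3 days of TAC, 2 and 23 after 10 days, 2 and 17 after 4 days of swimming and 2 and 5 after 10 days. After 10 days of swimming the share lower was near that of all genes (13.6%). Their medians were -0.40, -0.83, -0.57 and -0.24 log2 units. Ncl, nucleolin, fell, at -2.38, -2.25, -2.45 and -1.43. Nop10, a small protein of the pseudouridine-guiding particles, rose by 1.15, 1.27, 1.33 and 0.88. With the length trend removed the counts were 3 and 9, 3 and 22, 3 and 13, and 2 and 4. Of 12 regulators of ribosomal protein synthesis 0 rose and 8, 8, 8 and 4 fell, or 1 rose and 7, 7, 5 and 2 fell with the length trend removed. Larp1, which binds TOP mRNAs, fell, at -1.86, -1.82, -2.14 and -1.37. Myc, which drives ribosome genes, was at -1.17, -1.20, -0.75 and 0.01 log2 units and was called lower in the first 3. After MI 0 genes of the biogenesis, regulator and elongation lists and 1 initiation factor, a rise, were called. These lists hold long transcripts beside short ones, and the length of each was not tested apart from the trend.

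The authors' deposited table also had most members higher in the 4 TAC and swim comparisons with controls, at their q-value under 0.05, and fewer calls in each than the limma fit. For 3 days of TAC 72 of the 83 members tested in the authors' deposited table were higher and 0 lower, where 17.3% and 18.3% of all their tested genes were. The authors tested 12801 genes there and left 2 members untested, so these 83 need not be the 83 of the limma fit. For 10 days of TAC the authors' deposited table had 72 and 0 (25.6% and 15.8% of genes). For 4 days of swimming the authors' deposited table had 74 and 0 (21.1% and 16.4%), and for 10 days 76 and 0 (16.6% and 11.6%). After MI the authors' deposited table called 1 member higher and 0 lower (9.70% and 3.26%). For cardiomyocytes against fibroblasts the authors' deposited table called 24 members higher and 1 lower (30.3% and 27.9%), fewer than the 50 and 3 above. For 10 day swim against 10 day TAC the authors' deposited table called 1 member higher and 0 lower (10.2% and 13.4%), where limma called 5 and 0.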

How the data were processed

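Poly-A RNA of 19 fibroblast and 3 cardiomyocyte libraries was purified with Qiagen RNeasy Plus and made into stranded Illumina libraries, per the labels' protocols. The authors computed FPKM with Cufflinks 2.0.2 on mm10, per the submitters' processing notes. The aligner, annotation and use of strand were not given in the sources used here. A comparison table deposited by the authors, of the Cuffdiff layout per the file headers, holds their log2 fold changes, p-values and q-values, and its condition names were matched to the groups as swim control to sedentary, TAC control to sham and path to TAC. The 44 columns of confidence bounds of FPKM were not used here.

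Per-gene tests used limma 3.58.1 under R 4.3.3, with its trend and robust options, on log2(FPKM + 1). A gene entered if 2 or more libraries reached FPKM 1: 1 fit over the 19 fibroblast libraries (9425 genes) and 1 over all 22 (10371 genes) for cardiomyocytes. The threshold for a call was 0.05 after Benjamini-Hochberg adjustment over all genes tested. The fit was tested on simulated data. Transcript and coding lengths came from GENCODE M21 (same build), promoters from RefSeq GRCm38.p6, and the length trend was a spline with 4 degrees of freedom. Depth is unknown, so no counting interval was given. The group, the lists and the tests were chosen with earlier results of these data known.

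Named were the 3 highest and 3 lowest members of each comparison, the 5 highest and lowest in mean FPKM, the 5 least like the rest, members listed under 0.1 FPKM where the median member exceeds 20, the stalk genes, Rpsa, Rpl3, Rpl5, Rpl11, Rps6, Rps14, Rps19, Rps19bp1 and the near copies with their parents, and up to 4 genes of a related list; some genes that this rule names are not reported here. Where fewer than 5 members were called, or a promoter is shown, others were named after their values were seen (Rpl14, Rpl38, Rps10, Rpl28). Marker lists covered fibroblasts, cardiomyocytes, endothelium, macrophages, lymphocytes, pericytes and erythroid cells, and RNA quality. Alternatives were another pseudocount, no filter, other scalings, the length and GC trends, limma without trend, only the groups compared, a replicate block and leaving out each library.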

Additional observations from a re-analysis of the deposited data

Results flagged for a closer look

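None of the 83 ribosomal protein genes tested in fibroblasts was called for a difference between the swim and TAC courses, with 3 at an unadjusted p under 0.05. By the same limma test of the difference itself, 4 of 32 ribosome biogenesis genes were called higher, where 1.86% of all genes were. The difference is the change from 4 to 10 days of swimming minus that from 3 to 10 days of TAC. With the length trend removed 4 were again called higher, and leaving out single libraries is not reported here for these genes. Rrs1, an assembly factor of the 60S subunit, was 2.77 log2 units higher in the swim course (limma adjusted p = 0.0209). Nop58 and Nop56, core proteins of the particles that methylate ribosomal RNA, were 2.04 (limma adjusted p = 0.0420) and 1.51 (limma adjusted p = 0.0495) higher, and Gar1, of the pseudouridine-guiding particles, 1.24 (limma adjusted p = 0.0487). The courses start at different days, 3 for TAC and 4 for swimming.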

How the results depend on the processing

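The main limits are the trend on transcript length, which differs between the same libraries as the rises, the lack of read counts, groups of 2 or 3 libraries, and copies that share reads. For 3 and 10 day TAC and 4 and 10 day swim the number of members called higher stayed within 75 to 80, of 82 to 86 tested, under every alternative run, at 77 to 79, 78 to 79, 79 and 79 to 80 when single libraries were left out. With the length trend removed 0, 2, 1 and 0 were called lower. With equal total FPKM without Rn45s, members called higher were 75, 75, 75 and 77 at medians of 1.39, 1.16, 1.09 and 1.15, while the median of all genes moved to -0.35, -0.33, -0.73 and -0.35; 1, 3, 3 and 0 members were then called lower. A fit of cardiomyocytes and fibroblasts with the replicate block on the number, or for the third pair the date, that their titles share gave 51 members higher and 4 lower. Deviations of these pairs correlated at 0.23, 0.31 and 0.065, all above 0. The last was under 0.1, so the titles were not taken to pair the samples in the main fit. Sedentary fibroblast library 3 correlated best with cardiomyocyte library 1 (0.081). Whether libraries of shared title came from the same mouse is unknown, and the tests of cardiomyocytes against fibroblasts above treat them as unpaired. After MI the count of 1 was 0 with no filter, with every library at the same median and with only the groups compared, 4 with equal total FPKM, 2 with the length or the length and GC trend removed, 3 with the coding length trend removed (chosen after seeing the data), and 0 to 8 when single libraries were left out. For 10 against 3 day TAC 1 member was called lower with equal total FPKM, the coding length trend removed, limma without trend and robust settings, or only the groups compared. For 10 against 4 day swim equal total FPKM gave 3 higher. For swim against TAC at 10 days the count of 5 was 3 with no filter, 10 with the length and 12 with the coding length trend removed, and 0 to 5 when single libraries were left out. With the length trend removed 9.69% to 12.3% of other genes were called higher, by class of transcript length, so the 10 were near that share. The share of all genes beside the 12 is not reported here. The difference of courses gave 2 with equal total FPKM, 1 with any of the 3 trends removed or with only the groups compared, and 0 to 1 when single libraries were left out. For cardiomyocytes the 50 higher became 8 with equal total FPKM and 24, 22 and 23 with the length, the length and GC and the coding length trends removed (13, 13 and 19 lower), 43 with the same median (5 lower), and 35 to 61 when single libraries were left out. Shares of all genes called are not reported here for most of these alternatives, so the counts show only how far the calls of members moved. Without the highest 1% of other genes the mean shares were 11.7% in sedentary, 11.9% in sham, 12.7% in MI, 32.1% and 28.5% in TAC, 31.7% and 27.4% in swim fibroblasts and 11.2% in cardiomyocytes. With the longest transcript as the length, slopes averaged -0.157 in sham, -0.164 in MI, -0.568 and -0.533 in TAC, -0.599 and -0.450 in swim and -0.558 in cardiomyocytes, and with a pseudocount of 0.1 -0.125 in MI, -0.616 and -0.570 in TAC, -0.652 and -0.457 in swim and -0.602 in cardiomyocytes.

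Of 1428 values of named genes under the alternatives, 1328 kept direction and side of the threshold, 56 lost and 21 gained the call, and 23 changed sign. Rpl21 after 3 days of TAC was -0.29 with equal total FPKM and -0.20, -0.22 and -0.44 with the length, length and GC, and coding length trends removed. Rps19bp1 after 4 days of swimming was -0.62, -0.27, -0.43 and -0.44 in the same order. Rpl4 was -0.94 with equal total FPKM, -0.093 with the length trend removed, and between -0.035 without swim replicate 1 (-0.017 without swim replicate 3) and 0.29 without swim replicate 2 after 4 days of swimming, and -0.21 with equal total FPKM after 10. For cardiomyocytes equal total FPKM gave -0.027 for Rpl11, -0.24 for Rps19 and -0.38 for Rpsa. Without sedentary replicate 3, Rps19bp1 was 0.091 after 10 days of TAC (-0.32 without sedentary replicate 2), Rpl7l1 0.13 and Rpl30 0.20 after MI, and Rpl7l1 0.13 after 10 days of swimming (0.08 without swim replicate 2). Rpl7l1 after 3 days of TAC was 0.19 without sham replicate 1 and -0.63 without sham replicate 2, and Rpl4 after 10 days of TAC 0.0060 without TAC replicate 3. The cause of these changes was not tested.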

Other observations

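Cardiomyocytes and fibroblasts were also compared in the genes that make and regulate ribosomes. Of 33 biogenesis and nucleolar factors 2 were called higher in cardiomyocytes and 15 lower by limma, and of 13 regulators of ribosomal protein synthesis 2 and 10, against 38.7% and 38.6% of all genes. The 15 lower biogenesis calls were near the share of all genes. With the length trend removed the counts were 5 and 17 for biogenesis factors and 2 and 7 for regulators. Of other genes 37.3% to 41.5% were then called higher and 31.0% to 42.0% lower, by class of transcript length. Calls in this comparison depend on the scaling, and these lists were not read with equal total FPKM. Myc was -4.91 log2 units and Ncl -1.61 relative to fibroblasts. Of 10 elongation and TOP-type genes 6 were higher and 3 lower, Pabpc1 at -2.94. Of 31 initiation factors 8 were higher and 6 lower, both under the share of all genes.

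Swim and TAC at 10 days were set side by side in the same lists. After swimming 10 of 32 biogenesis factors were called higher than after TAC and 0 lower, 4 and 0 regulators, and 6 and 1 initiation factors, where 10.9% of all genes were called higher and 13.2% lower. Ncl was 0.83 (limma adjusted p = 0.0290) and Myc 1.21 (limma adjusted p = 0.00855) log2 units higher after swimming. The difference between lists was not tested.

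Of the other marker lists, lymphocyte markers summed to 0.954 to 4.60 FPKM in sedentary and at most 2.50 in TAC and swim fibroblasts. Endothelial markers summed to 143 to 286 FPKM after 10 days of TAC and 38.9 to 117 in the other fibroblast libraries. Pericyte and smooth muscle markers summed to 11.8 to 45.7 FPKM in fibroblasts. The part of these cells in the ribosomal protein values was not tested.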
